A study of Mus musculus with 2 samples.

Results

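Genes for 7 tubulin-modifying enzymes, Ttll1, Ttll3, Ttll5, Ttll6, Ttll7, Ttll9 and Agbl2, and for the microtubule-binding protein Tppp3 were followed in ependymal cells of the mouse spinal cord. They were taken by name, with earlier results of these data known. All 8 were listed in the table of EpA cells, which holds 17189 genes. EpA is the authors' name for the ependymal population of that table. The cells came from C57BL/6J mice of at least 12 weeks carrying Troy-CreERT2+/- and Rosa26-tdTomato, so that cells with past Troy promoter activity and their descendants carry tdTomato. There was 1 library from spinal cord 3 days after a dorsal funiculus incision and 1 library from uninjured cord. In both, tdTomato-positive cells of 5 mm segments were sorted by flow cytometry and sequenced as 3′ single-cell libraries. The sources used here do not say how many animals were pooled for a library or when Cre was induced.

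Tubulin in the axonemes of motile cilia carries side chains of glutamate and glycine. Enzymes of the TTLL family add them: glutamylases add glutamate, glycylases add glycine, and cytosolic carboxypeptidases such as the product of Agbl2 remove glutamate again. Tppp3 belongs to another family, whose proteins bind and bundle microtubules. Ependymal cells line the central canal and carry motile cilia.

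The injured library held 1004 EpA cells with 25296289 unique molecular identifiers (UMIs), at a median of 20158.5 per cell, and 224 kept cells outside EpA. The uninjured library held 555 EpA cells with 7689179 UMIs, at a median of 11387 per cell, and 156 kept cells outside EpA. The median mitochondrial share of UMIs was 6.76% in injured and 11.2% in uninjured EpA cells. A set of 12 ependymal markers summed to 5560 counts per 1000000 UMIs (CPM) in injured and 17882 CPM in uninjured EpA cells. Outside EpA they summed to 804 CPM in injured and 1456 CPM in uninjured cells. None of the 12 was at 0 in EpA or outside it, so the EpA label matched its markers by their sums only. Of 18 barcode sequences found in both libraries, 16 were among kept cells and 2 among EpA cells of both. Levels outside EpA are therefore also given without these barcodes where stated. Ratios of EpA cells over cells outside use all kept cells. With 1 library per condition no test between conditions is possible. Every interval below is a 95% interval for counting error only, and a gene is called higher or lower by size alone, at 2-fold or more when it reached 10 CPM in either library.

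In EpA cells after injury, 4 of the 8 genes were at least 2-fold lower (Ttll3, Ttll6, Ttll9 and Agbl2), 1 was at least 2-fold higher (Ttll7), and Ttll1, Ttll5 and Tppp3 lay between. Among all 9418 genes with 10 CPM in either library, 11.4% were lower and 11.4% were higher by the same rule. On the log2 scale the median ratio, injured over uninjured, stood at −0.95 for the 8 genes and at −0.022 for all 9418. A list of motile cilium genes, of which 66 of 70 named genes passed the 10 CPM floor, had 63 lower and a median of −1.51. The sums weigh cells by their UMIs, and injured cells held up to 170946 UMIs, against 47859 in uninjured cells. When every cell was weighted alike, only Ttll9 of the 4 lower genes remained past 2-fold, at −1.46, and the others stood at −0.60 for Ttll3, −0.65 for Ttll6 and −0.72 for Agbl2, with 3.84% of all genes lower and 6.68% higher. Without scaling, as UMIs per cell, Ttll9 again remained alone below, the median of all genes stood at 0.88, and Ttll1 and Ttll5 turned positive at 0.18 and 0.31.

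**Figure D1:**
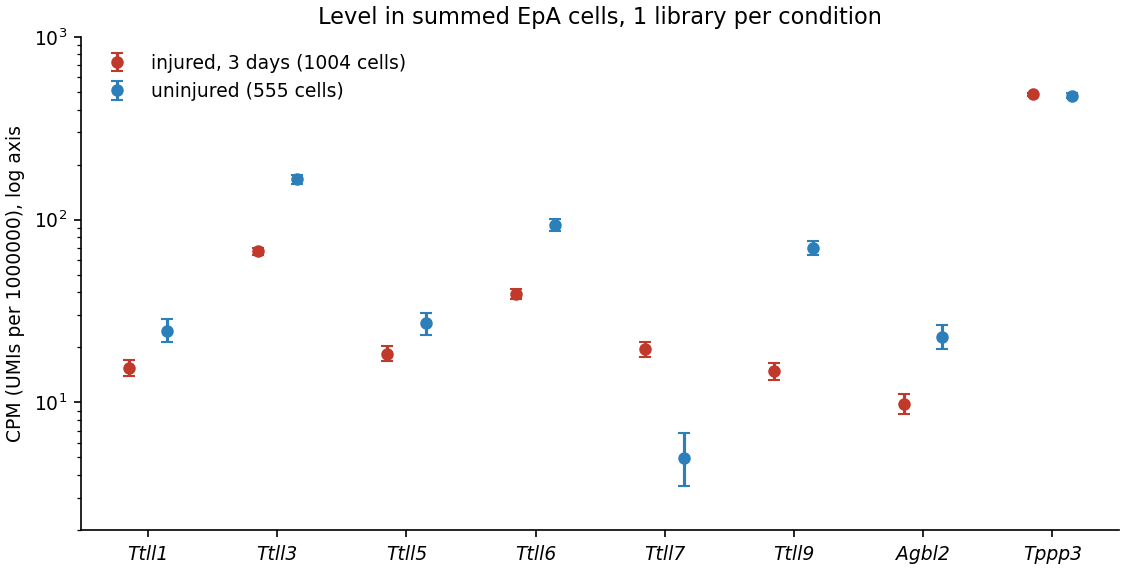
Levels of the 8 genes in summed EpA cells of the injured library (red, left) and the uninjured library (blue, right), in CPM on a log axis, with exact 95% Poisson intervals. Intervals of the 2 libraries are apart for every gene except Tppp3, which had 484 CPM in injured and 475 CPM in uninjured cells.

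Ttll9, a TTLL protein needed for normal tubulin glutamylation of sperm flagella in mice, showed the widest gap among the lower genes. It had 14.8 CPM (13.3 to 16.4) from 374 UMIs in injured EpA cells, against 70.0 CPM (64.2 to 76.1) from 538 UMIs in uninjured cells. This is 4.73-fold lower (4.14 to 5.41), a log2 ratio of −2.24. At an equal depth of 5000 UMIs per cell, 9.47% of 972 injured cells and 31.5% of 539 uninjured cells held a Ttll9 UMI. The gene lies at chr2:152962485-153008482 on the plus strand (GENCODE M21, GRCm38), and 129 bp of its exons overlap the antisense gene Gm14199. The sources used here do not say whether counting used the strand, so reads of this overlap cannot be told apart.

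Ttll6 elongates glutamate side chains, mainly on alpha-tubulin. Its level was 39.2 CPM (36.8 to 41.7) in injured and 93.4 CPM (86.7 to 100.5) in uninjured EpA cells, which is 2.38-fold lower (2.16 to 2.63). A Ttll6 UMI was found in 21.0% of injured and 36.5% of uninjured cells at 5000 UMIs. The gene lies at chr11:96133786-96165451 on the plus strand. Cep41, which in zebrafish and human cells carries Ttll6 into the cilium, had 32.0 CPM in injured and 48.5 CPM in uninjured EpA cells, a log2 ratio of −0.60 that did not pass 2-fold.

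Ttll1 is the catalytic subunit of a glutamylase complex with Tpgs1, Tpgs2, Lrrc49 and Nicn1. It had 15.4 CPM (13.9 to 17.0) in injured and 24.7 CPM (21.3 to 28.5) in uninjured EpA cells, a log2 ratio of −0.69. Its 4 partners did not pass 2-fold either, at log2 ratios of −0.70 for Nicn1, −0.38 for Lrrc49, −0.37 for Tpgs2 and 0.18 for Tpgs1. Ttll5, a glutamylase that also modifies the photoreceptor protein RPGR, had 18.5 CPM (16.9 to 20.3) in injured and 27.1 CPM (23.5 to 31.0) in uninjured cells, a log2 ratio of −0.55. For both genes the counting intervals of the CPM levels were apart, yet the difference was under 2-fold. At equal depth a Ttll1 UMI was found in 8.23% (6.58 to 10.1) of injured and 11.5% (8.93 to 14.5) of uninjured cells. A Ttll5 UMI was found in 8.33% (6.67 to 10.3) of injured and 10.4% (7.94 to 13.3) of uninjured cells. For both genes the intervals of these shares overlap. Ttll1 lies at chr15:83483769-83510893 on the minus strand and Ttll5 at chr12:85824659-86061893 on the plus strand.

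Ttll3, a glycylase that starts glycine side chains on axonemal tubulin, had 66.9 CPM (63.7 to 70.2) in injured EpA cells, against 166 CPM (157 to 175) in uninjured cells. It was 2.48-fold lower (2.30 to 2.67), and at 5000 UMIs 34.2% of injured and 54.5% of uninjured cells held a UMI. Ttll3 lies at chr6:113389260-113414587 on the plus strand and shares 283 bp of exon with Arpc4 on the same strand. Arpc4, a subunit of the Arp2/3 actin nucleator, had 106 CPM in injured and 77.5 CPM in uninjured EpA cells, the opposite order to Ttll3. The sources used here do not say how reads of the shared stretch were assigned. Ttll8, the other initiating glycylase of the mouse, was also lower, with 17.4 CPM in injured and 57.9 CPM in uninjured cells and a log2 ratio of −1.74.

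Agbl2 (chr2:90782727-90834437, plus strand) codes for the carboxypeptidase CCP2, which shortens glutamate side chains. Its level was 9.80 CPM (8.62 to 11.1) in injured and 22.8 CPM (19.5 to 26.4) in uninjured EpA cells, 2.32-fold lower with an interval of 1.90 to 2.83 that reaches under 2-fold. At equal depth 6.17% (4.74 to 7.87) of injured and 9.28% (6.96 to 12.0) of uninjured cells held a UMI, with intervals that overlap. Genes for enzymes that add glutamate and for one that removes it thus stood lower in the same library. The related carboxypeptidase genes Agbl3 and Agbl4 were lower too, at log2 ratios of −1.46 and −1.81.

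Ttll7 was the only one of the 8 at least 2-fold higher after injury. It codes for a glutamylase that prefers beta-tubulin and is best known from neurites. Injured EpA cells had 19.5 CPM (17.8 to 21.3) from 493 UMIs, and uninjured cells 4.94 CPM (3.50 to 6.78) from 38 UMIs, a ratio of 3.94 (2.83 to 5.64) and a log2 ratio of 1.96. A Ttll7 UMI was found in 8.23% (6.58 to 10.1) of injured and 1.86% (0.893 to 3.39) of uninjured cells thinned to 5000 UMIs. In microglia-macrophage-like cells at that depth it was found in 0 of 22 injured and 0 of 22 uninjured cells, which at 3 counts of 22 cells allows a share of up to 13.6% in each. Of the listed neuron markers Stmn2 stood at 635 CPM in injured and 152 CPM in uninjured EpA cells, while the other 5 in the table summed to 1.70 CPM in injured and 4.81 CPM in uninjured cells, none of them above 1.11 CPM in injured or 3.77 CPM in uninjured cells. The log2 ratio of Ttll7 was 1.20 with cells thinned to 2000 UMIs and 1.33 among EpA cells of at least 1000 UMIs and less than 10% mitochondrial UMIs. Endothelial markers summed to 13.8 CPM in injured and 54.2 CPM in uninjured EpA cells. Ly6a made up 42.3 CPM of the uninjured and 0.672 CPM of the injured sum. Cldn5, Pecam1, Ly6c1 and Itm2a were also lower in injured cells. Flt1 (3.87 CPM in injured, 0.130 CPM in uninjured cells) and Cdh5 (0.356 CPM in injured, 0.130 CPM in uninjured cells) were higher. The 6 oligodendrocyte progenitor markers in the table summed to 45.03 CPM in injured and 1.04 CPM in uninjured cells, with Olig1 at 24.9 CPM in injured and 0.130 CPM in uninjured cells. C1ql1 (12.2 CPM in injured, 0.390 CPM in uninjured cells), Olig2 (5.02 and 0.130 CPM), Lhfpl3 (1.82 and 0.260 CPM) and Cspg4 (1.03 and 0 CPM) were higher in injured cells too. The defining progenitor marker Pdgfra was near 0 in both, at 0.0395 CPM in injured and 0.130 CPM in uninjured cells. The 6 mural markers summed to 130 CPM in injured and 28.6 CPM in uninjured cells. Acta2 made up 120 CPM of this in injured and 27.8 CPM in uninjured cells. Kcnj8 had 6.52 CPM and Pdgfrb 0.237 CPM in injured cells, and both were at 0 in uninjured cells. Rgs5 and Vtn were also higher in injured cells, and Abcc9 was slightly lower. The part of these markers in the Ttll7 difference was not tested. Ttll7 lies at chr3:146852367-146984009 on the plus strand.

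Tppp3 differed little between the libraries as a whole. The injured library had 484 CPM (476 to 493) from 12255 UMIs and the uninjured library 475 CPM (460 to 491) from 3655 UMIs, a ratio of 1.02 (0.982 to 1.06). Its spread between cells was wider after injury. At 5000 UMIs per cell a UMI was found in 86.3% (84.0 to 88.4) of injured and 87.6% (84.5 to 90.2) of uninjured cells, yet the variance over the mean was 2.20 in injured and 1.23 in uninjured cells. The most UMIs in 1 thinned cell was 19 among injured and 14 among uninjured cells. In microglia-macrophage-like cells, which were taken as the background for free RNA, 1 of 22 cells held a UMI in each library, or 4.55%. The cells thinned had median depths of 20491.5 UMIs for injured and 11531 for uninjured EpA cells, and 33305.5 for injured and 9080 for uninjured microglia-macrophage-like cells. Without thinning, 97.2% of injured and 96.2% of uninjured EpA cells held a Tppp3 UMI, with an average of 12.2 UMIs per injured and 6.59 per uninjured cell. Tppp3 lies at chr8:105467493-105471526 on the minus strand, and its relative Tppp, known from oligodendrocytes, was lower at 5.06 CPM in injured and 16.6 CPM in uninjured cells.

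Beyond the 8 genes, 34 others of tubulin modification and severing were listed by name, and 26 passed the 10 CPM floor. Of these, 5 were at least 2-fold lower, 2 were higher and 19 lay between, with a median log2 ratio of −0.39, beside 11.4% lower and 11.4% higher over all genes. The lower ones were Ttll8, Agbl3, Agbl4 and Tppp, given above, and Ttll13, an elongating glutamylase, at −2.07. The higher ones were Hdac6, a tubulin deacetylase, at 1.41, and Fignl1, a relative of the severing enzyme fidgetin that also acts in DNA repair, at 3.16. Fignl1 had 16.9 CPM in injured and 1.82 CPM in uninjured cells. Of 10 tubulin genes, the substrates of these enzymes, 9 passed the floor and 6 were higher, among them Tubb2b at 7.47, Tubb6 at 6.23 and Tubb5 at 3.25, whereas Tubb4b, a beta-tubulin abundant in cilia, stood at −0.49.

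**Figure D2:**
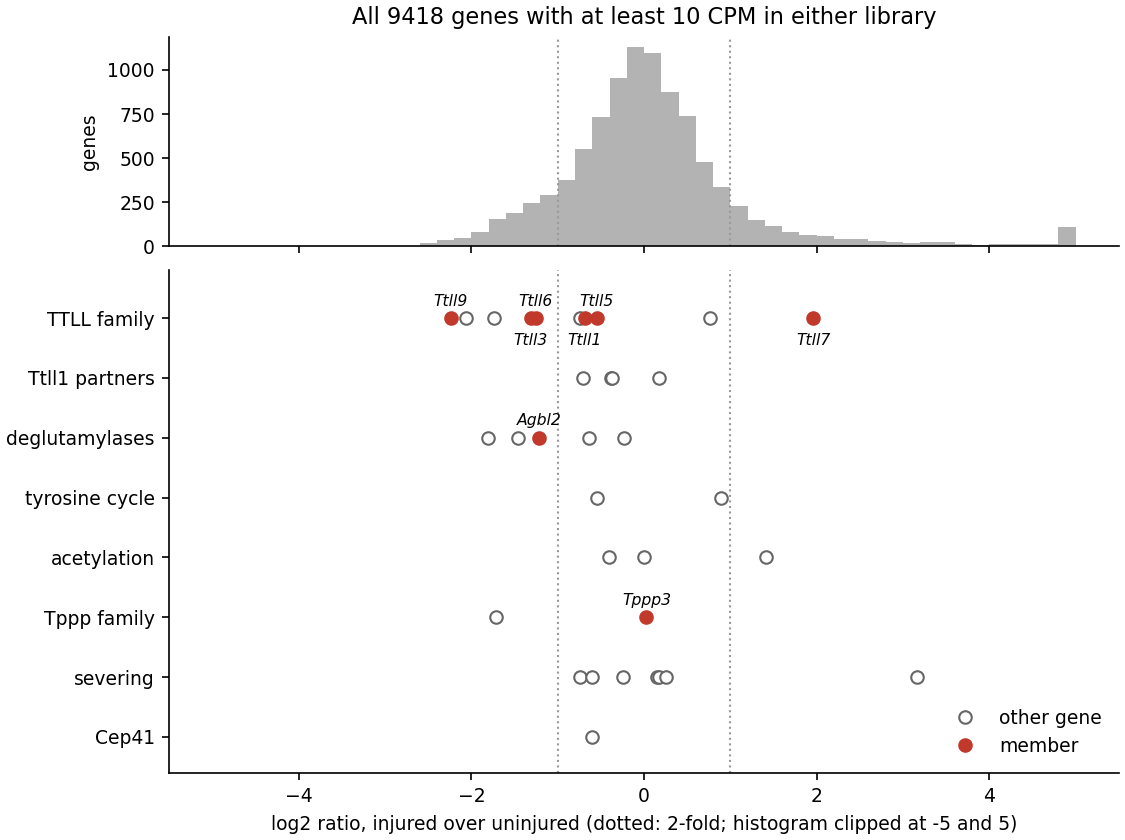
Log2 ratio of injured over uninjured EpA cells for the 8 genes (red) and the other listed genes (open circles) by role, below a histogram of the 9418 genes that reached 10 CPM in a library. Ttll9 at −2.24 and Ttll7 at 1.96 bound the 8 genes, and Tppp3 at 0.027 lies in the middle of the histogram.

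EpA cells of the injured library were then split by cilium content, the share of a cell's UMIs from the motile cilium list, which holds none of the 8 genes. Each cell was thinned to 2000 UMIs, and the lower bound was 1.3% of UMIs, the 5th percentile of uninjured cells. Below this bound lay 575 of 992 injured cells (58.0%), and 417 lay within the range of uninjured cells. The split is a range of a score and not a cell type: 179 injured and 110 uninjured cells lay within 20% of the bound. Depth moved with it. Median UMIs per cell were 28030 below and 11632 within the range in the injured library, and 11502.5 in the 520 uninjured cells within it. The median mitochondrial share was 5.13% below and 8.74% within the range, against 11.2% in those uninjured cells. The part of depth and RNA quality in the values that follow was not tested. Both classes are set against the same uninjured cells.

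In injured cells below the range, the 4 lower genes of the whole comparison were lower again and Ttll7 was higher, where 17.4% of 9537 genes were lower and 14.8% higher. Ttll9 had 4.22 CPM (3.35 to 5.24) there, against 69.7 CPM (63.8 to 76.0) in uninjured cells in range, which is 16.5-fold lower (13.1 to 21.2). Ttll3 had 29.3 CPM below the range and 168 CPM in uninjured cells, 5.73-fold lower (5.18 to 6.34). Ttll6 had 20.6 CPM below the range and 94.8 CPM in uninjured cells, 4.60-fold lower (4.06 to 5.22). Agbl2 had 5.41 CPM below the range and 23.0 CPM in uninjured cells, 4.25-fold lower (3.31 to 5.48). Ttll1 and Ttll5 stayed under 2-fold, at log2 ratios of −0.94 and −0.76. Tppp3 had 412 CPM (403 to 421) below the range and 479 CPM (463 to 495) in uninjured cells, a log2 ratio of −0.22.

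In injured cells within the range, none of the 8 genes was at least 2-fold lower and 1 was higher, where 0.327% of 8872 genes were lower and 1.25% higher. Ttll3 (186 CPM against 168 CPM in uninjured cells), Ttll6 (97.7 against 94.8 CPM), Agbl2 (23.7 against 23.0 CPM), Ttll1 (22.9 against 24.9 CPM) and Ttll5 (26.0 against 27.4 CPM) had log2 ratios between −0.12 and 0.15. Ttll9 and Ttll7 departed further. Ttll9 had 48.1 CPM (42.8 to 54.0) in these injured cells and 69.7 CPM in uninjured cells, 1.45-fold lower (1.25 to 1.68). Ttll7 had 13.3 CPM (10.6 to 16.6) within the range, against 4.63 CPM (3.20 to 6.47) in uninjured cells, a ratio of 2.89 (1.91 to 4.44), so it was higher in both classes. Tppp3 had 713 CPM (692 to 735) within the range, which is 1.49 times (1.42 to 1.56) its level in uninjured cells. The near-equal totals of Tppp3 in the 2 libraries thus combined a lower level in injured cells below the range with a higher level in those within it.

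**Figure D3:**
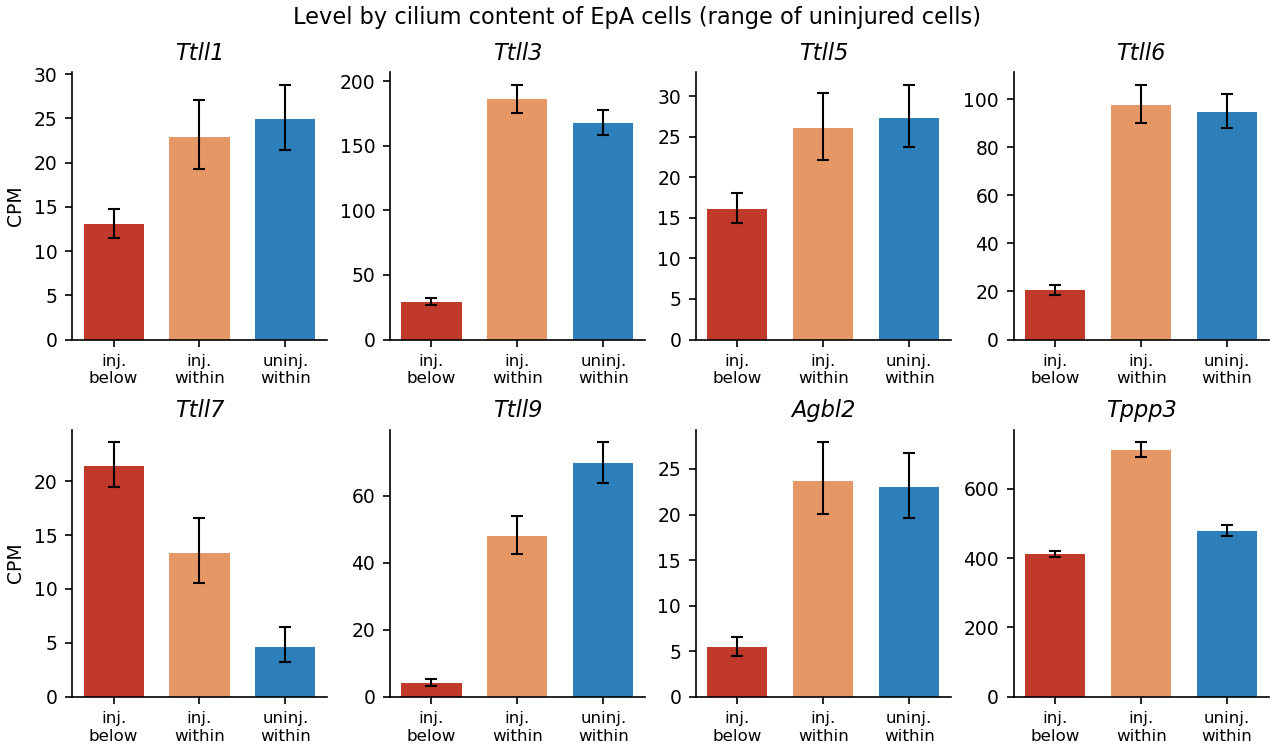
Level of each gene in CPM in injured EpA cells below the cilium range of uninjured cells, in injured cells within it, and in uninjured cells within it, with exact 95% Poisson intervals. Ttll3, Ttll6, Ttll9 and Agbl2 have short first bars, Ttll7 is above the uninjured bar in both injured classes, and Tppp3 is highest in injured cells within the range, at 713 CPM.

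Of the other listed enzymes past the floor, 10 of 26 were lower and 3 higher below the range, beside 17.4% and 14.8% of all genes, and 0 of 23 were lower or higher within it, beside 0.327% lower and 1.25% higher. The lower ones had log2 ratios of −3.60 for Ttll13, −3.02 for Agbl4, −2.80 for Ttll8, −2.60 for Tppp, −2.28 for Agbl3, −1.12 for Agbl5, −1.11 for Nicn1, −1.04 for Ttll4, −1.04 for Katnal2 and −1.003 for Cep41. The higher ones were Fignl1 at 4.10, Hdac6 at 1.61 and Svbp, the partner of the vasohibins that remove tyrosine from tubulin, at 1.01. Ttll4, Katnal2, Cep41 and Svbp lay close to the 2-fold limit. Fignl1 had 22.1 CPM below the range and 1.22 CPM in uninjured cells, and 3 UMIs in all injured cells within the range. Hdac6 had 18.8 CPM below and 7.42 CPM within the range, against 6.12 CPM in uninjured cells. Nicn1, the Ttll1 partner, had 22.5 CPM below and 50.6 CPM within, against 48.7 CPM in uninjured cells, whereas Tpgs1 had 70.5 CPM below and 73.7 CPM within, against 64.5 CPM in uninjured cells.

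The cells of each library were also ranked by cilium content into 4 bins of equal size. Ttll9 had 0.470, 4.51, 36.7 and 54.6 CPM in injured cells from the lowest to the highest bin, and 62.9, 68.8, 74.4 and 73.4 CPM in uninjured cells. Ttll3 had 7.997, 42.2, 156 and 198 CPM in injured bins, and between 160 and 171 CPM in uninjured ones. For Ttll6 the injured bins stood at 9.22, 28.0, 90.0 and 96.9 CPM, and the uninjured bins between 85.9 and 103 CPM. For Agbl2 the injured bins stood at 3.20, 6.43, 18.5 and 27.0 CPM, and the uninjured bins between 22.2 and 23.3 CPM. These 4 genes were far lower in the lower injured bins and nearer to uninjured levels in the upper ones. Ttll9 stayed under every uninjured bin, although the interval of its highest injured bin (47.3 to 62.7) overlapped that of the lowest uninjured bin (51.6 to 75.8). In the highest injured bin Ttll3 (183 to 213) and Agbl2 (22.0 to 32.9) stood above every uninjured bin. Their intervals overlapped those of the lowest uninjured bin (152 to 191 for Ttll3, 16.0 to 30.7 for Agbl2). Ttll1 ran between 12.0 and 24.6 CPM and Ttll5 between 14.5 and 25.1 CPM over injured bins.

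Ttll7 and Tppp3 took other courses over the bins. Ttll7 had 19.9, 23.2, 17.4 and 13.1 CPM in injured cells, and 4.61, 2.91, 5.17 and 7.19 CPM in uninjured cells, where each bin held 6 to 14 UMIs. Injured cells stood above uninjured ones in each bin, although in the highest bin the intervals overlapped (9.66 to 17.4 in injured, 3.93 to 12.1 in uninjured cells). Tppp3 had 289, 523, 730 and 730 CPM in injured cells, and 458, 442, 462 and 541 CPM in uninjured cells. In the lowest injured bin it was below every uninjured bin, and it was above all of them in the upper 2 injured bins. Median depth was 39520 UMIs per cell in the lowest and 11431 in the highest injured bin, and lay between 11067 and 12170 in uninjured bins.

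**Figure D4:**
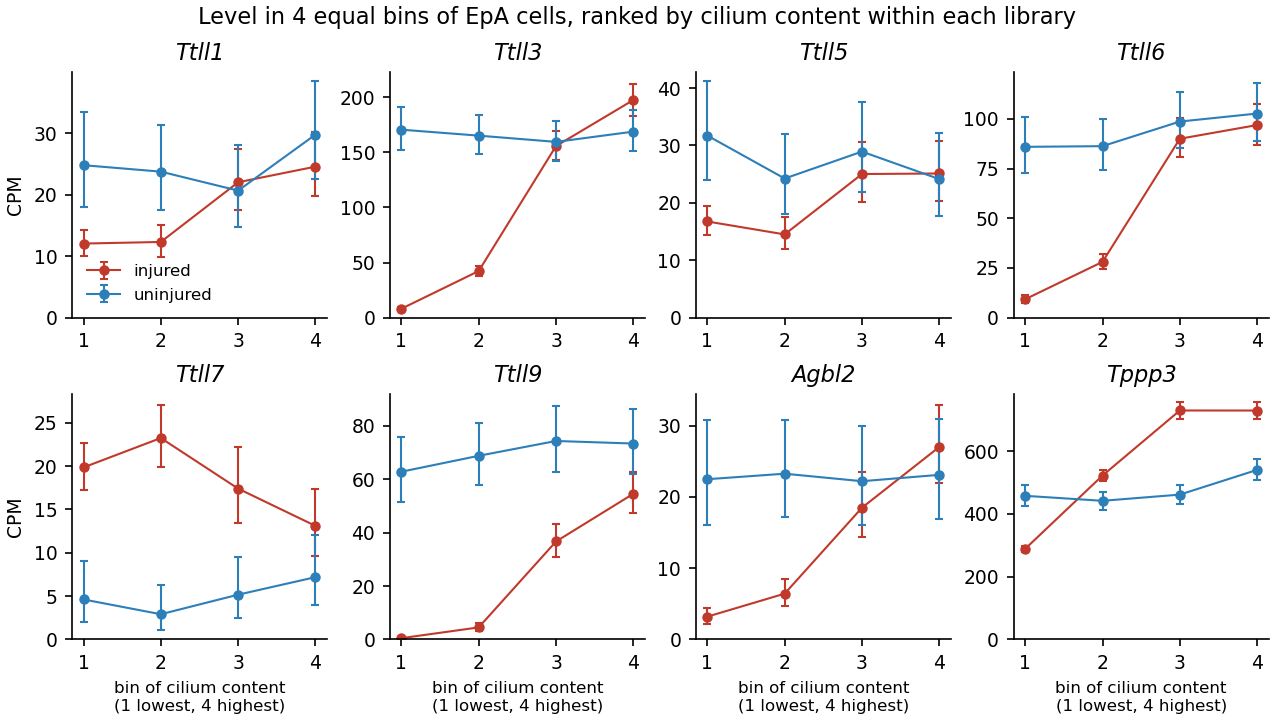
Level of each gene in CPM in 4 equal bins of EpA cells, ranked by cilium content within the injured library (red) and the uninjured library (blue), with exact 95% Poisson intervals. In injured cells 7 genes are higher in the upper 2 bins than in the lowest and Ttll7 is lowest in the highest bin at 13.1 CPM.

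EpA cells were also ranked by depth within each library into 3 bins of equal size. Median depths were 9539, 20158.5 and 40301 UMIs in injured and 8669, 11387 and 21438 UMIs in uninjured bins, so the bins are not matched. From the shallowest to the deepest injured bin, Ttll9 had 44.1, 22.3 and 5.73 CPM and Ttll3 had 168, 106 and 30.0 CPM, whereas uninjured bins stood at 72.8, 74.8 and 66.4 CPM for Ttll9 and 146, 167 and 172 CPM for Ttll3. Ttll7 had 16.5, 23.0 and 18.6 CPM in injured and 4.72, 5.64 and 4.66 CPM in uninjured bins. The uninjured bins rested on 7, 12 and 19 Ttll7 UMIs. The part of depth in the Ttll7 difference was not tested. Tppp3 had 614, 599 and 409 CPM in injured bins and 452, 492 and 475 CPM in uninjured ones.

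Clusters formed without these 8 genes or the other listed enzymes placed EpA cells in 5 main groups, called here by number and leading genes. Clusters 1 (Ccdc153) and 4 (Plet1, Fos) held cells of both libraries. Clusters 2 (Gfap, C3), 3 (Crym, Tagln) and 5 held injured cells with at most 3 uninjured EpA cells. Leading genes were ranked over all kept cells of a cluster, in EpA or outside it. Those of cluster 5 were the neutrophil genes S100a8, S100a9, Ngp, Camp, Elane and Ctsg, then Prc1 of mitosis. Cluster 5 also held 4 injured and 4 uninjured cells outside EpA. A cluster made of 1 library may reflect that library. Depth differed between clusters too. Median UMIs per injured EpA cell were 10352.5 in cluster 1, 18934 in cluster 2, 30396 in cluster 3, 11589 in cluster 4 and 54070 in cluster 5. Uninjured EpA cells had 11315 in cluster 1 and 12069.5 in cluster 4. The part of depth in the levels by cluster was not tested. The neutrophil and lymphocyte markers summed to 0.751 CPM in injured and 7.80 CPM in uninjured EpA cells. Tppp3 was highest in clusters 2 and 4 of injured cells, at 709 CPM (689 to 731) and 705 CPM (654 to 758), whose intervals overlap, followed by 552 CPM (528 to 576) in cluster 1, 431 CPM (417 to 446) in cluster 3 and 265 CPM (253 to 278) in cluster 5, which are apart from each other. In uninjured cells it had 455 CPM (438 to 472) in cluster 1 and 558 CPM (521 to 596) in cluster 4. Ttll7 had 25.6 CPM (21.8 to 29.9) in cluster 2, 24.5 CPM (21.1 to 28.2) in cluster 3, 13.4 CPM (10.8 to 16.5) in cluster 5, 12.1 CPM (8.78 to 16.2) in cluster 1 and 9.92 CPM (4.76 to 18.3) in cluster 4 of injured cells. The first 2 do not differ beyond their intervals, nor do the other 3. Within cluster 1, injured cells stood above the 5.10 CPM (3.47 to 7.24) of uninjured cells, and within cluster 4 the intervals overlapped, with 3.86 CPM (1.42 to 8.40) in uninjured cells.

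Outside EpA, Ttll1, Ttll3, Ttll5, Ttll6, Ttll9 and Agbl2 were all under 10 CPM in both libraries, at 1.15 to 8.90 CPM in injured and 1.56 to 9.36 CPM in uninjured cells. Without the shared barcodes they stood at 1.01 to 9.41 CPM in injured and 1.58 to 9.46 CPM in uninjured cells. EpA cells exceeded the cells outside by 18.2-fold (10.98 to 32.6) in the injured and 19.9-fold (9.12 to 54.5) in the uninjured library for Ttll6, and by 12.9-fold (6.47 to 30.1) in the injured and 44.8-fold (12.4 to 371) in the uninjured library for Ttll9, where only 8 injured and 2 uninjured UMIs lay outside EpA. For Ttll1 the excess was 1.73-fold (1.32 to 2.30) in the injured and 4.52-fold (2.15 to 11.4) in the uninjured library. Tppp3 had 75.3 CPM (69.0 to 82.1) outside EpA in injured and 57.0 CPM (44.6 to 71.6) in uninjured cells, a log2 ratio of 0.39 that was 0.059 without the shared barcodes. With all kept cells, the Tppp3 level in EpA cells exceeded that outside by 6.43-fold (5.89 to 7.03) in the injured library. In the uninjured library the excess was 8.35-fold (6.62 to 10.7). Without the shared barcodes Tppp3 outside EpA had 60.3 CPM (54.2 to 66.9) in injured and 57.5 CPM (45.1 to 72.4) in uninjured cells. The excesses were not computed for that set, and the lower injured level there would make the injured excess larger.

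Unlike the other 7 genes, Ttll7 had a lower level in uninjured EpA cells than in uninjured cells outside EpA. Outside EpA it had 15.1 CPM (12.3 to 18.2) in injured and 12.5 CPM (7.14 to 20.3) in uninjured cells, so uninjured EpA cells had 0.396 times (0.216 to 0.761) the level outside, and injured EpA cells 1.29 times (1.05 to 1.61). Of these UMIs 93 of 105 in the injured and 14 of 16 in the uninjured library came from endothelial-like cells (clusters led by vascular genes, 1 of them by haemoglobin genes), which had 20.3 CPM (16.4 to 24.8) in 115 injured and 27.1 CPM (14.8 to 45.5) in 52 uninjured cells, or 21.0 CPM in injured and 27.3 CPM in uninjured cells without the shared barcodes. In microglia-macrophage-like cells 0 UMIs were found in 30 injured and 35 uninjured cells, which allows up to 4.06 CPM in injured and 12.6 CPM in uninjured cells at 3 counts over the group. Among named groups outside EpA with at least 20 cells in a library, Tppp3 was highest in fibroblast-like cells, with 136 CPM (115 to 159) in 35 injured and 292 CPM (217 to 384) in 30 uninjured cells. The 12 injured cells outside EpA that fell in the ependymal clusters 1, 2 and 3 had 564, 576 and 487 CPM, from 5, 3 and 4 cells. The fibroblast-like values rested on few cells: 16 injured and 6 uninjured ones held a UMI, and single cells held up to 90 of 156 UMIs in the injured and up to 29 of 51 UMIs in the uninjured library. Without the shared barcodes the values were 63.1 CPM in 26 injured and 308 CPM in 21 uninjured cells.

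**Figure D5:**
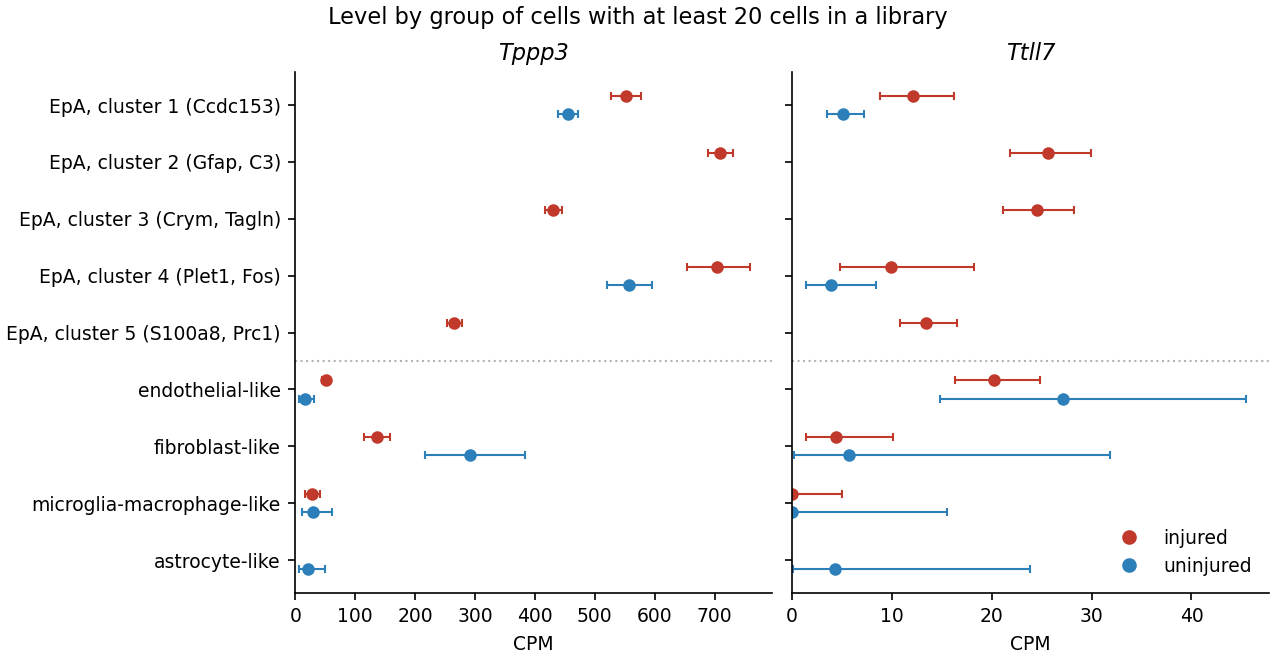
Level of Tppp3 and Ttll7 in CPM in 5 clusters of EpA cells (above the dotted line) and in the named groups outside EpA (below it), injured in red above uninjured in blue, for groups of at least 20 cells in a library, with exact 95% Poisson intervals. Tppp3 is higher in EpA clusters than in most groups outside, and Ttll7 in endothelial-like cells stands at 20.3 CPM in injured and 27.1 CPM in uninjured cells. Genes beside a cluster number lead over all kept cells of that cluster, and S100a8 was near 0 in injured EpA cells.

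Cell by cell, the genes whose level ran most like that of Tppp3 in both libraries were Pvalb (Pearson r of 0.40 in 972 injured and 0.25 in 539 uninjured cells), Hsp90aa1 (0.27 in injured, 0.25 in uninjured cells), Nudc (0.25 in injured, 0.24 in uninjured cells), Meig1 (0.44 in injured, 0.22 in uninjured cells) and Gng5 (0.21 in both), out of 2574 genes compared. Cells share their library and depth, so these are descriptions. No gene reached 0.2 in both libraries for any of the other 7. With cilium content, r over 992 injured cells was 0.64 for Ttll3, 0.49 for Ttll9, 0.46 for Ttll6, 0.38 for Tppp3 and 0.27 for Agbl2. It was 0.14 for Ttll1, 0.095 for Ttll5 and −0.16 for Ttll7. Over 547 uninjured cells it was at most 0.13, for Tppp3. With the log of a cell's UMIs, r over the 992 injured cells was −0.44 for Ttll3, −0.29 for Ttll9, −0.30 for Ttll6 and −0.18 for Tppp3. For Agbl2 it was −0.12, for Ttll1 −0.050, for Ttll5 −0.023 and for Ttll7 0.10. The part of depth in the values for cilium content was not tested.

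Promoter sequences are shown for the called genes: Ttll9, Ttll6, Ttll3 and Agbl2 were lower along with the cilium list, and Ttll7 was higher. RefSeq windows (GRCm38.p6) from 250 bases before to 50 bases after a start were matched for 6 of the 8 genes, in 8 windows. They were searched on both strands for GTTGCC, letters of the X-box that RFX factors bind, for GTTGCC followed after 3 letters by GCAAC, and for TGTTTA, a forkhead core. GTTGCC stood in 12.5% of 32851 windows of all genes and in 37.9% of 66 windows of the cilium list. The pair stood in 49 windows of all genes (0.149%) and in 2 of the cilium list (3.03%). TGTTTA stood in 13.4% of windows of all genes and in 19.7% of those of the cilium list. The pair contains GTTGCC, so these counts overlap. Below are 120 bases before and 10 bases from the start, plus strand, 5′ to 3′, with matches in capitals, for Ttll9 (chr2:152962365-152962494), Ttll6 (chr11:96133666-96133795), the first (chr2:90782607-90782736) and second (chr2:90783118-90783247) Agbl2 windows, the first (chr6:113389140-113389269) and second (chr6:113392343-113392472) Ttll3 windows, and Ttll7 (chr3:146852247-146852376).
Ttll9: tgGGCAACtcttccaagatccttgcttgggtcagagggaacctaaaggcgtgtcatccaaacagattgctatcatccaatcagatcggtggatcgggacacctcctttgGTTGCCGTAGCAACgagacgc
Ttll6: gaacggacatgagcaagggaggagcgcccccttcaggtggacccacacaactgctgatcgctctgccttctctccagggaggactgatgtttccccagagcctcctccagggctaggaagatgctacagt
Agbl2, first window: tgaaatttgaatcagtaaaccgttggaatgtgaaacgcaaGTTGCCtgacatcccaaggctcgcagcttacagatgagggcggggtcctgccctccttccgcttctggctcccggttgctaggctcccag
Agbl2, second window: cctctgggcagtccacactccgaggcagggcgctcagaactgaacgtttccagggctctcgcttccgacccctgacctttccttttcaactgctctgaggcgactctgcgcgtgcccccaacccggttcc
Ttll3, first window: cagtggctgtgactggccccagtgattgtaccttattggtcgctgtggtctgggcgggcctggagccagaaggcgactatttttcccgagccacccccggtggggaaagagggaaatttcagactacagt
Ttll3, second window: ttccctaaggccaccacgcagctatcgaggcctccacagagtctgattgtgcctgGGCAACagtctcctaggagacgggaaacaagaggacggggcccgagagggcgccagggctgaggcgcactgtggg
Ttll7: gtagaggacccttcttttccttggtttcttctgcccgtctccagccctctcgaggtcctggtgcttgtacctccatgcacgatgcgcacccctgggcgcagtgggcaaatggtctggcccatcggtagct
Ttll9 held GTTGCC letters 118 and 11 bases before its start, the nearer one as part of the pair. The first Agbl2 window held 1 match 80 bases and the second Ttll3 window 1 match 65 bases before the start. Ttll5, which was under 2-fold, held 1 at 230 bases, and the first Ttll3 window held TGTTTA at 150 bases, outside the stretch shown, and no GTTGCC. No match was found in the second Agbl2 window, in the window of Ttll6, which was lower, or in that of Ttll7, which was higher.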

How the data were processed

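The authors' deposited values are raw counts of UMIs per gene and cell from 10x 3′ libraries, with Cell Ranger 3.0.1, Seurat and the mm10 build named in the submitters' processing notes. Kept cells and EpA cells were taken from the authors' tables. UMIs were summed per library and divided by the sum of all genes to give CPM, and log2 ratios used 0.5 added counts. Levels carry exact Poisson, ratios exact conditional binomial and shares Clopper-Pearson 95% intervals, for counting error only, which say nothing of variation between animals. Shares were compared after thinning to 5000 UMIs (seed 1), leaving out 32 injured and 16 uninjured EpA cells. The cilium split used 2000 UMIs, leaving out 12 injured and 8 uninjured cells. All kept cells were clustered (scanpy 1.11.5, 2000 variable genes without the 42 listed enzyme genes, 20 components, 15 neighbours, Leiden resolution 0.5) and named from listed markers, with cutoffs set with the data in view. No doublet caller was run and no cell was removed. TMM factors came from edgeR 4.0.16.

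Called genes were those at 2-fold with at least 10 CPM in either library. Simulated counts were made for the 17189 genes of the EpA comparison. In each of 4 sets made 3-fold or 4-fold higher or lower, 50 of 50 genes were called. Of 8728 unchanged genes, 0 were called. All changes made were past the 2-fold limit, and there were no replicate libraries from which to take variation between animals. These counts therefore check the calling rule only. They are not a rate of false calls between the real libraries. The text names all 8 genes, every listed enzyme past the size rule in summed EpA cells or in either cilium class, the Ttll1 partners, and the 5 genes most correlated with a member where r was at least 0.2 in both libraries. Genes named outside this rule (Arpc4, Gm14199, Stmn2, the other single cell type markers and the tubulins) were chosen after their values were seen. The 8 genes and all lists were chosen with earlier results of these data known. Alternatives were other scalings, cell sets, floors and folds. Leaving out barcodes found in both libraries was added after the data were seen.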

Additional observations from a re-analysis of the deposited data

Results flagged for a closer look

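Both entries are genes whose ratio to uninjured EpA cells in range went opposite ways in the injured cells below and within the uninjured cilium range, with counting intervals on opposite sides of a ratio of 1. For Ttll3 the log2 ratio was −2.52 below and 0.15 within the range. For Tppp3 it was −0.22 below and 0.57 within. The difference between the classes was not tested, since both come from 1 injured library and share the same uninjured cells.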

How the results depend on the processing

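The log2 ratio of Tppp3 (0.027) stayed under 2-fold in every setting. It was 0.10 with TMM scaling, −0.056 with totals without mitochondrially encoded genes, 0.89 as unscaled UMIs per cell (where the median of all genes stood at 0.88), 0.21 with cells weighted alike, 0.20 with cells thinned to 2000 UMIs, −0.069 in all kept cells, −0.081 in all deposited barcodes, −0.076 once EpA cells under 1000 UMIs or at 10% mitochondrial UMIs and above were left out, and 0.13 without the 5% of EpA cells with most UMIs. The count of 4 lower genes among the 8 was 1 as UMIs per cell, with cells weighted alike and with thinned cells. In these settings 1.33%, 3.84% and 6.53% of all genes were lower. The count of 5 lower among 26 other enzymes was 1 of 26 as UMIs per cell and 3 of 24 with cells weighted alike. At a 50 CPM floor it was 2 of 6, beside 13.8% of all genes lower. At 1.5-fold it was 11 of 26, beside 21.9% of all genes lower. The share of cells with a Tppp3 UMI was 60.3% in injured and 56.3% in uninjured cells at 2000 UMIs, and 97.2% in injured and 96.2% in uninjured cells unthinned. For the other 7 genes, 52 of 77 values under alternatives moved by less than the counting interval, 25 moved by more and 0 reversed a called direction. UMIs per cell gave 42.7% of all genes higher and 1.33% lower, against 11.4% each in the main setting. The cilium counts were the same with the bound at the 10th percentile. No paired analysis was possible because each condition has 1 library. Depth limits Ttll7 most, with 38 UMIs in uninjured EpA cells.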
